A study of Mus musculus with 20 samples.

Results

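Mybl1, Mybl2, Foxm1, E2f7 and E2f8 encode transcription factors of the cell cycle, and their transcripts were followed here in resting and regenerating mouse liver by RNA sequencing. They are 5 of the 46603 gene identifiers counted. The 5 were chosen by name, and Mybl1 was put on the list because of its own response to liver resection in each genotype in these data, so its differences between groups are a description and were not tested. Livers came from 5 wild-type mice (WT, C57BL/6J, bought from a vendor) and 5 EedHepKO mice (KO). In the KO mice, Albumin:Cre removed Eed exons flanked by loxP sites (exons 3 and 6 in the labels) in hepatocytes. Eed is a core subunit of polycomb repressive complex 2, the histone methyltransferase that places H3K27 methylation, and the other cells of a KO liver keep their Eed. All mice were males aged 2 months, and the strain label was the same for both genotypes. Lobes 1, 2 and 3, removed at partial hepatectomy (PHx), gave the baseline libraries, and lobes 4, 5 and 6 of the regrowing liver gave the libraries after PHx. Each of the 4 groups held 5 libraries. The regrowing liver was taken at 30 h in 1 mouse of each genotype, at 40 h in 2 and at 48 h in 2. Genotype and colony of origin cannot be told apart, nor can PHx and lobe.

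A hepatocyte that leaves quiescence first switches on G1/S genes through activator E2F proteins and later a G2/M program. B-Myb, the product of Mybl2, joins the MuvB core complex and recruits FoxM1 to the promoters of mitotic genes. A-Myb, the product of Mybl1, is a close relative best known as the driver of meiotic and piRNA genes in male germ cells. E2F7 and E2F8 are atypical E2F proteins that bind DNA without a DP partner, repress G1/S genes as the cycle advances, and are known in liver for their part in the polyploidy of hepatocytes.

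The promoters of cell cycle genes carry short motifs, and the 250 bases before the start of the gene are shown for the members with an entry in the RefSeq promoter table of GRCm38.p6: Mybl2 at chr2:163054385-163054634 on the plus strand, E2f7 at chr10:110745189-110745438 on the plus strand and E2f8 at chr7:48881597-48881846 on the minus strand. They are shown because the results below turn on how these transcripts moved. Each is written 5′ to 3′ on the strand of its gene. Positions are counted from the start in the RefSeq table, which for Mybl2 lies upstream of the start of the gene in GENCODE given below. Capitals mark an E2F word, the E2F core word, a CCAAT box or a CHR, on either strand.
Mybl2: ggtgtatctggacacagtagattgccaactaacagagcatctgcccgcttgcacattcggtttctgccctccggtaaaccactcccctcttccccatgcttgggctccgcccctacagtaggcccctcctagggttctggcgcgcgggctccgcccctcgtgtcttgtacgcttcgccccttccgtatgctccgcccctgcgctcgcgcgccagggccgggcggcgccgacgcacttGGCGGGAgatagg
E2f7: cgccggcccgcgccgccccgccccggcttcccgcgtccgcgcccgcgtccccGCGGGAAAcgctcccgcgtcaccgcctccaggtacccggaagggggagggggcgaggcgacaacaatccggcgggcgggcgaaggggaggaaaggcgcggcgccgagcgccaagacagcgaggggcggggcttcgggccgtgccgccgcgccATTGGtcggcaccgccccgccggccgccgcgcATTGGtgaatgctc
E2f8: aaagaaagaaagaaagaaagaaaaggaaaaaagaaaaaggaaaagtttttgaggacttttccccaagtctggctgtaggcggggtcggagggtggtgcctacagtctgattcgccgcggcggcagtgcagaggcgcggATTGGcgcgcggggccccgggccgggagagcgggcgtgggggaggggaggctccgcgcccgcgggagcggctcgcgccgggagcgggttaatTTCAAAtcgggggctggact

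The Mybl2 window held the E2F core word GGCGGGA 13 to 7 bases before the start. Of 32851 promoter windows of this length, 9.75% held that word. It was added to the search after the Mybl2 sequence had been seen. In the E2f7 window the E2F word TTTCCCGC lay on the opposite strand 198 to 191 bases before the start, and 1.86% of windows held it or 1 of the words TTTGGCGC, TTTCGCGC and TTTGCCGC. CCAAT boxes (CCAAT) lay on the opposite strand of E2f7 at 46 to 42 and 14 to 10 bases before the start, and of E2f8 at 112 to 108 bases. These boxes were in 33.8% of windows. The E2f8 window also held a CHR, the element bound by MuvB, as TTTGAA on the opposite strand 20 to 15 bases before the start. That word or TTTAAA was in 25.2% of windows. No window of the 3 held a Myb word or a forkhead word. The Myb words were TAACGG with its variant TAACTG and CAACGG with its variant CAACTG, and 23.7% of windows held 1 or more. The forkhead words were GTAAACA with its variant ATAAACA, in 7.1% of windows. Both strands were searched, and the CHR and E2F words did not overlap another marked word.

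Total counts ranged from 21634890 to 30461351 per library. Eed itself, the targeted gene, was at 16.8 ± 1.09 CPM (mean ± SD, n = 5) at baseline in WT and 5.64 ± 1.44 in KO, and at 18.4 ± 3.98 after PHx in WT and 4.62 ± 1.13 in KO. CPM are counts per 1000000 counts of the library total after TMM scaling. Hepatocyte markers led every group, with Alb between 27200 and 102000 CPM. Several livers after PHx stood apart from their group. The 33 G2/M genes of a list described below summed to 675, 80.9, 175, 59.9 and 3230 CPM in WT replicates 1 to 5 after PHx, and to 61.1, 106, 1720, 249 and 47.2 CPM in KO replicates 7, 8, 10, 11 and 12. WT replicate 1 and KO replicate 12 were the 30 h livers, WT 2 and 3 and KO 10 and 11 were taken at 40 h, and WT 4 and 5 and KO 7 and 8 at 48 h. Values below follow this order of replicates, in which time after PHx runs from 30 h to 48 h in WT and from 48 h to 30 h in KO. In bulk RNA, fewer cells of a type and less RNA per cell cannot be told apart.

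Mybl1 (ENSMUSG00000025912, chr1:9667415-9700209, minus strand of mm10) was almost silent in resting WT liver, present in resting KO liver, and high in every WT liver after PHx. At baseline in WT it stood at 0, 0.1, 0.0515, 0.138 and 0.0459 CPM, 7 counts in all. In resting KO liver it stood at 9.59, 5.66, 1.72, 3.49 and 1.55 CPM. The lowest KO liver was above the highest WT liver, and the mean CPM of KO was 65.7 times that of WT. The fitted log2 difference was 5.88 (SE 0.84).

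After PHx, Mybl1 reached 17.2, 13, 12.1, 15.2 and 33.2 CPM in WT. All 5 WT livers were above all WT and KO baseline livers, and replicate 5, a 48 h liver, was the highest. The log2 response in WT was 7.92 (SE 0.86). In KO after PHx, Mybl1 stood at 5.93, 9.03, 22.1, 30.1 and 2.27 CPM. The 40 h livers were high, and the other 3 were within the KO baseline range. The log2 response in KO was 1.65 (SE 0.58), so the response in KO minus that in WT was -6.26 (SE 1.02). After PHx the genotypes overlapped, with means of 18.2 ± 8.66 CPM in WT and 13.9 ± 11.7 in KO and a fitted log2 difference of -0.39 (SE 0.56). The lower value of the KO response thus came with a higher KO baseline. At 40 h alone the log2 difference of KO from WT was 1.05 (SE 0.66), and at 48 h it was -1.69 (SE 0.67).

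**Figure D1:**
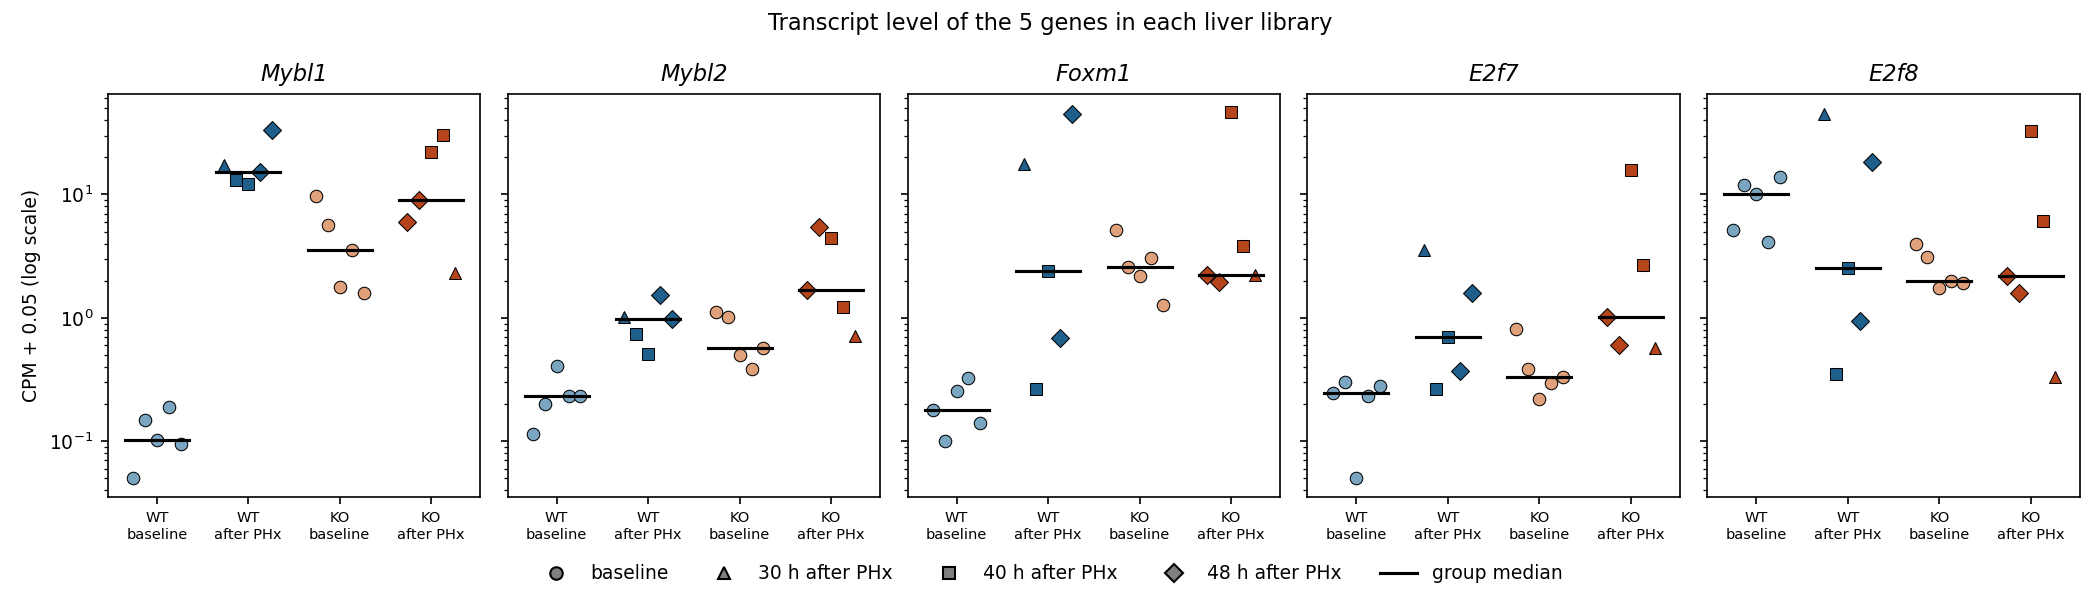
CPM of each member in the 20 libraries (log axis, 0.05 CPM added so that 0 can be drawn), by genotype and state, with symbols for the time after PHx and a bar at each group median. All 5 WT livers after PHx lie above the WT baseline livers for Mybl1 (12.1 to 33.2 CPM after PHx) and for Mybl2 (0.457 to 1.49 CPM). Foxm1, E2f7 and E2f8 spread widely within each group after PHx.

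Mybl2 (ENSMUSG00000017861, chr2:163054687-163084688, plus strand), which encodes B-Myb, was a low transcript that rose after PHx in both genotypes. At baseline in WT it stood at 0.065, 0.15, 0.36, 0.183 and 0.183 CPM. After PHx in WT it stood at 0.96, 0.696, 0.457, 1.49 and 0.927 CPM. All livers after PHx were above all baseline livers, as for 6.91% of the 14661 genes tested. The log2 rise was 2.22 (SE 0.60, edgeR adjusted p = 0.0132). In KO it stood at 1.06, 0.972, 0.448, 0.332 and 0.516 CPM at baseline and 1.62, 5.45, 4.35, 1.17 and 0.663 CPM after PHx. These ranges overlapped through the 30 h liver (KO 12), and the 48 h replicate 8 and the 40 h replicate 10 were far above the rest. The log2 rise in KO was 1.98 (SE 0.54, edgeR adjusted p = 0.0118). Within mice, Mybl2 was higher after PHx than at baseline in 4 of 4 WT and 5 of 5 KO mice. With each mouse as a block, which leaves out WT replicate 1, the WT rise was 1.95 with an adjusted p of 0.0707.

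Mybl2 was also higher in KO than in WT in both states. The log2 difference was 1.78 at baseline (SE 0.60, edgeR adjusted p = 0.0467), with only WT replicate 3 inside the KO range, and 1.55 after PHx (SE 0.53, edgeR adjusted p = 0.0399), where the ranges overlapped. Both calls rested on few counts and single libraries. At baseline the call was lost in 8 of 10 fits that left out 1 library, all but those without WT replicate 3 or KO replicate 11 (log2 1.59 to 2.13 over the 10 fits, adjusted p up to 0.102). After PHx it was lost without WT replicate 1, 2, 3 or 5 or KO replicate 8 or 10 (log2 1.09 without KO replicate 8, adjusted p = 0.159).

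Foxm1 (ENSMUSG00000001517, chr6:128362967-128376146, plus strand), the forkhead factor of the G2/M program, was raised in resting KO liver and very uneven after PHx. At baseline it stood at 0.13, 0.05, 0.206, 0.275 and 0.0917 CPM in WT and at 5.08, 2.54, 2.14, 2.99 and 1.22 CPM in KO. The genotypes did not overlap, as for 15.6% of genes higher in KO at baseline. The log2 difference was 4.16 (SE 1.35, edgeR adjusted p = 0.0404). It kept its size in every fit that left out 1 library (3.90 to 4.51). The call was lost in 9 of 10 of these fits, all but that without KO replicate 12 (adjusted p up to 0.0892). Each of these fits also held the livers after PHx, where Foxm1 ran from 0.217 to 46.7 CPM.

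After PHx, Foxm1 stood at 17.7, 0.217, 2.36, 0.638 and 44.7 CPM in WT. The 30 h liver and the 48 h replicate 5 were high, and the 40 h replicate 2 was within the WT baseline range. The log2 rise in WT was 6.39 (SE 1.41, edgeR adjusted p = 0.00428), all 4 numbered WT mice rose, and with each mouse as a block the rise was 4.12 with an adjusted p of 0.0774. In KO after PHx it stood at 2.19, 1.91, 46.7, 3.78 and 2.18 CPM. Only replicate 10, a 40 h liver, lay above the KO baseline range. The log2 response in KO was 2.02 (SE 1.08, edgeR adjusted p = 0.158), higher after PHx in 3 of 5 mice, and -0.16 without KO replicate 10. The difference of the responses was -4.37 (SE 1.69, edgeR adjusted p = 0.261), and -6.55 without KO replicate 10 (adjusted p = 0.0207).

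E2f7 (ENSMUSG00000020185, chr10:110745439-110787384, plus strand) was the lowest member per exon length in 3 of the 4 groups. At baseline it stood at 0.195, 0.25, 0, 0.183 and 0.229 CPM in WT and at 0.763, 0.338, 0.172, 0.249 and 0.282 CPM in KO. The ranges overlapped, and the log2 difference of 1.06 was not called (SE 1.03, edgeR adjusted p = 0.519). After PHx it stood at 3.49, 0.217, 0.647, 0.319 and 1.55 CPM in WT and at 0.959, 0.549, 15.6, 2.61 and 0.521 CPM in KO. The WT values after PHx reached down into the baseline range in the 40 h replicate 2. The rise in KO passed the test (log2 3.45, SE 0.97, edgeR adjusted p = 0.0132), with all 5 KO mice higher after PHx. That call was lost without KO replicate 10 (1.66, adjusted p = 0.0894) and with each mouse as a block (2.13, adjusted p = 0.129). In WT the log2 difference was 2.82 (SE 1.01, edgeR adjusted p = 0.055), and DESeq2 called it (2.88, adjusted p = 0.0117). It was also called without WT replicate 2 (3.08, adjusted p = 0.0464) or 4 (3.11, adjusted p = 0.0496), and was 1.97 (adjusted p = 0.167) without the 30 h WT replicate 1 and 1.83 (adjusted p = 0.304) with the block. Between genotypes after PHx the log2 difference was 1.70 (SE 0.89, edgeR adjusted p = 0.173) and -0.09 without KO replicate 10.

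E2f8 (ENSMUSG00000046179, chr7:48866429-48881596, minus strand) had its highest group median at baseline in WT (10.1 CPM), where the other members were lowest. At baseline it stood at 5.07, 11.9, 10.1, 4.08 and 13.9 CPM in WT and at 3.92, 3.04, 1.69, 1.95 and 1.88 CPM in KO. All KO livers were below all WT livers, as for 12.2% of genes. The log2 difference of -1.85 was not called (SE 1.07, edgeR adjusted p = 0.253). When only these 10 libraries were fitted, without the spread of the livers after PHx, it was -1.82 with an adjusted p of 0.00175. After PHx, E2f8 stood at 44.6, 0.304, 2.51, 0.886 and 18.4 CPM in WT and at 2.13, 1.54, 32.7, 6.03 and 0.284 CPM in KO. The livers above the WT baseline range were WT replicates 1 and 5 and KO replicate 10. Neither response was called (log2 0.56 in WT, SE 1.03, edgeR adjusted p = 0.749, and 1.77 in KO, SE 1.07, adjusted p = 0.211). The KO value was 0.01 (adjusted p = 0.997) without KO replicate 10 and 0.17 (adjusted p = 0.916) with each mouse as a block. Within mice E2f8 was lower after PHx in 3 of 4 WT and 3 of 5 KO mice. With each mouse as a block the WT value was -2.11, and without the 30 h WT replicate 1 it was -0.70. After PHx the log2 difference of KO from WT was -0.65 (SE 1.03, edgeR adjusted p = 0.685), and 0.62 without WT replicate 1.

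E2f8 shares 610 exonic bases, 11.2% of its exons, with Gm2788 (ENSMUSG00000085995, chr7:48877958-48913040), a processed transcript on the opposite strand that was singled out after its values were seen. The strand setting of the counting is not given in the sources used here, so reads of the 2 genes in the shared bases cannot be told apart. Gm2788 stood at 43.3, 33.5, 28.1, 23.1 and 43.8 CPM at baseline in WT, and at 3.88, 3.25, 2.35, 3.32 and 3.71 CPM in KO. It was between 0 and 4.4 CPM after PHx in WT and between 0 and 0.612 CPM in KO. Gm2788 was thus high in the same 5 libraries that set E2f8 apart at baseline, and below that range in all livers after PHx. Within WT after PHx, replicates 1 and 5 were highest for both genes (Gm2788 4.4 and 1.82 CPM, E2f8 44.6 and 18.4 CPM). Within KO after PHx, replicates 10 and 11 were (Gm2788 0.458 and 0.612 CPM, E2f8 32.7 and 6.03 CPM). Its part in the E2f8 baseline difference was not tested. The genes that overlap exons of Foxm1 (Tex52 and Gm44596) and E2f7 (1700020G17Rik) had 0 counts in all libraries.

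**Figure D2:**
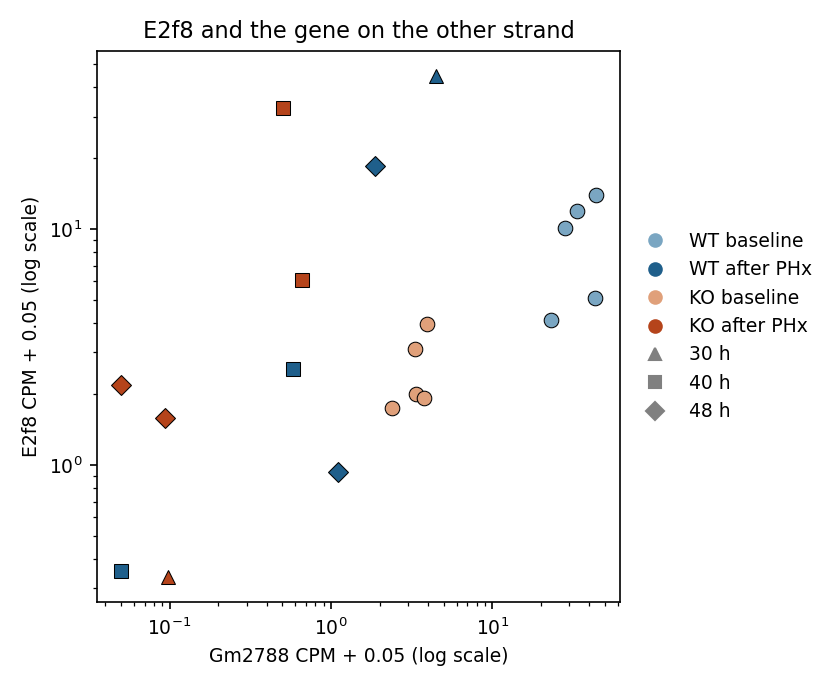
E2f8 CPM against Gm2788 CPM in the 20 libraries (both axes log, 0.05 CPM added), coloured by group, with symbols for time. The WT baseline livers lie at the right, at 23.1 to 43.8 CPM of Gm2788. The highest E2f8 values (44.6 and 32.7 CPM) come from livers with at most 4.4 CPM of Gm2788. Within each genotype after PHx, the livers highest in E2f8 are also among the highest in Gm2788.

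At baseline, 2 of 4 (Mybl2 and Foxm1) were called and both were higher in KO, where 16% of all 14661 genes were called and 11.1% were higher. After PHx, 1 of 4 (Mybl2) was called between genotypes, beside 24.2% of all genes. For the response in WT, 2 of 4 were called (Mybl2 and Foxm1), beside 20.1% of genes, and for the response in KO also 2 of 4 (Mybl2 and E2f7), beside 29.5%. With 4 members, these counts are not read as a result about the set. For the difference of the responses 0 of 4 were called by edgeR, 1 (Foxm1) at an unadjusted p under 0.05, and 0 by DESeq2, beside 0.389% of genes.

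**Figure D3:**
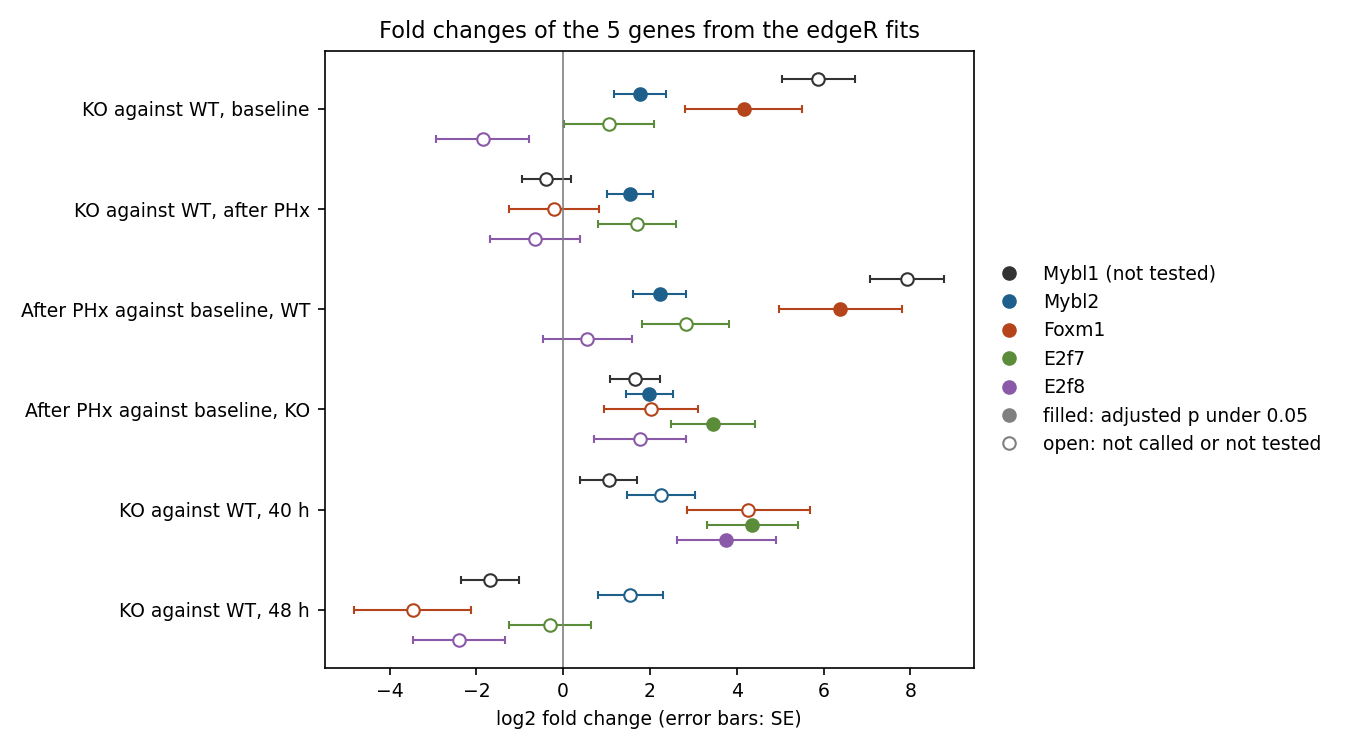
Log2 fold changes of the 5 members with SE bars in 6 comparisons, filled where the adjusted p was under 0.05 and open where it was not or where no test was made (Mybl1). At 40 h all 5 members lie above 0, and at 48 h Mybl2 alone does.

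KO and WT were also compared at single times. At 40 h, with 2 livers per genotype, E2f7 (log2 4.36, SE 1.05, edgeR adjusted p = 0.0151) and E2f8 (3.76, SE 1.14, edgeR adjusted p = 0.0412) were called higher in KO, 2 of 4 members, where 13.3% of genes were called and 8.61% were higher. Foxm1 had a log2 difference of 4.27 (SE 1.41, edgeR adjusted p = 0.0558) and Mybl2 of 2.25 (SE 0.78, edgeR adjusted p = 0.0662). Leaving out 1 library, Foxm1 ran from 1.53 without KO replicate 10 (adjusted p = 0.47) to 6.83 without WT replicate 3. Mybl2 ran from 1.02 without KO replicate 10 (adjusted p = 0.428) to 2.91 without KO replicate 11. All 4 had an unadjusted p under 0.05, and DESeq2 called all 4. Without the filter on low counts Foxm1 was called as well (4.31, adjusted p = 0.00659). The E2f7 and E2f8 calls were lost without WT replicate 2 (3.80, adjusted p = 0.157, and 2.94, adjusted p = 0.267) or KO replicate 10 (2.57, adjusted p = 0.103, and 2.08, adjusted p = 0.234). At 48 h, 0 of 4 were called by edgeR beside 24.3% of genes, 2 had an unadjusted p under 0.05, and DESeq2 called 2. Foxm1 had a log2 difference of -3.47 (SE 1.35, edgeR adjusted p = 0.0709), E2f8 of -2.40 (SE 1.07, edgeR adjusted p = 0.113), E2f7 of -0.31 (SE 0.94, adjusted p = 0.837) and Mybl2 of 1.55 (SE 0.75, adjusted p = 0.14). The 48 h values turned on single livers. Without KO replicate 8 Mybl2 was 0.35 (adjusted p = 0.817). Without WT replicate 5 the values were 1.59 for Foxm1, 0.96 for E2f8 and 1.14 for E2f7, and without WT replicate 4 Foxm1 (-4.56, adjusted p = 0.00621) and E2f8 (-3.44, adjusted p = 0.0126) were called. The 40 h and 48 h differences were not tested against each other.

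**Figure D4:**
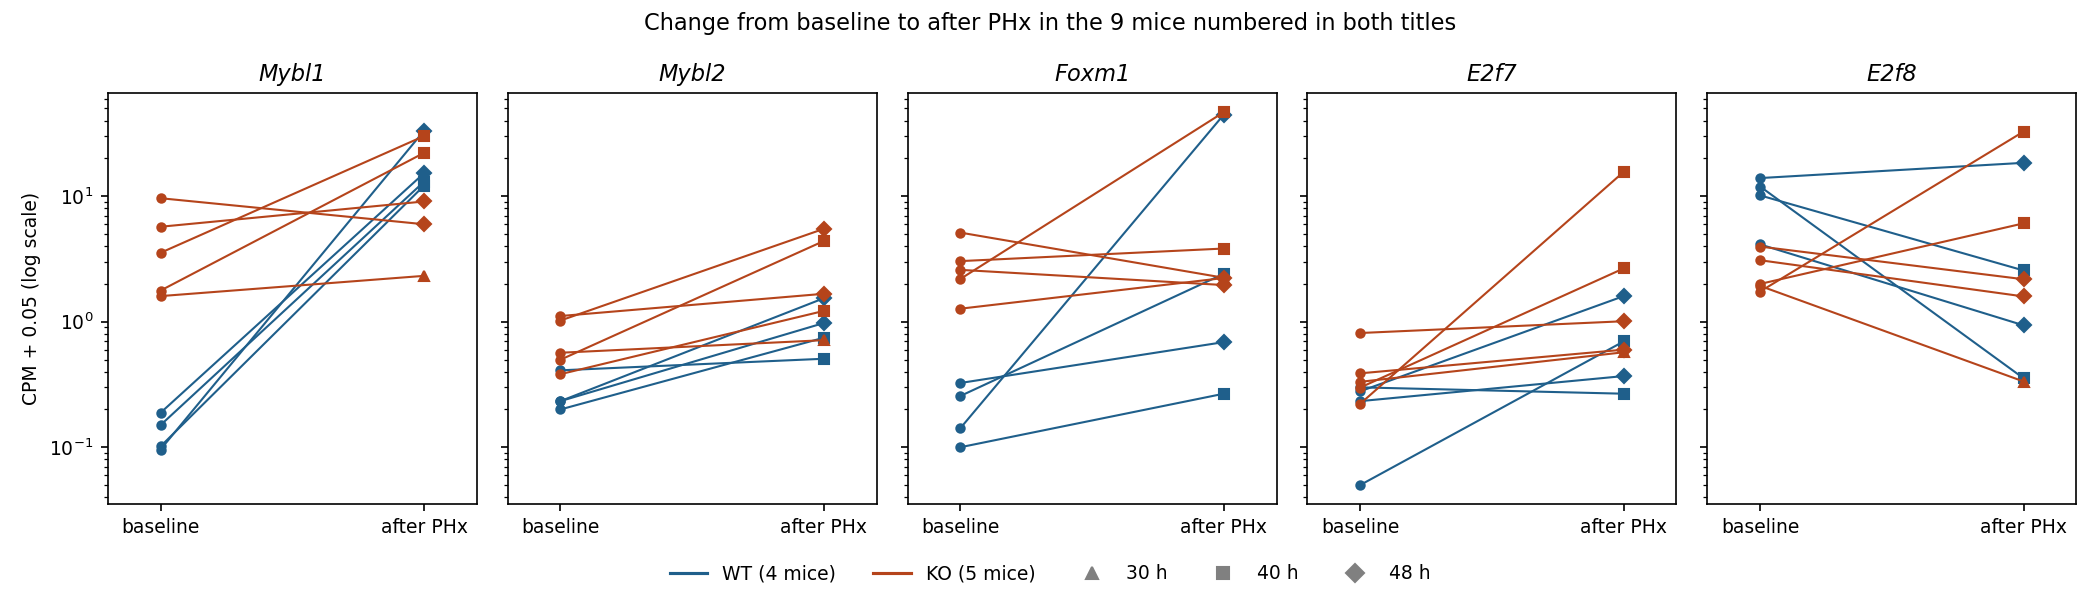
CPM of each member at baseline and after PHx in the 9 mice numbered in both titles (log axis, 0.05 CPM added), with 1 line per mouse. Mybl2 rises in all 9 mice, Mybl1 rises in 4 of 4 WT and 4 of 5 KO mice, and E2f8 falls in 3 of 4 WT and 3 of 5 KO mice.

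Per kilobase of exon, the order of the members changed with the state of the liver. In resting WT liver E2f8 was highest at 1.66 ± 0.788 CPM per kb, and the other 4 lay between 0.0124 ± 0.00982 (Mybl1) and 0.0407 ± 0.0232 (Mybl2), within each other's spread. In resting KO liver Mybl1 was highest at 0.815 ± 0.619 CPM per kb, followed by Foxm1 at 0.485 ± 0.249 and E2f8 at 0.459 ± 0.175. These 3 overlapped, and Mybl2 (0.144 ± 0.0709) and E2f7 (0.0401 ± 0.0258) came below. After PHx in WT the means were 3.36 ± 1.60 for Mybl1, 2.45 ± 3.49 for E2f8 and 2.28 ± 3.32 for Foxm1, all overlapping, with Mybl2 at 0.196 ± 0.0829 and E2f7 at 0.138 ± 0.151. In KO after PHx the order was Mybl1 (2.57 ± 2.17), Foxm1 (1.97 ± 3.44), E2f8 (1.57 ± 2.51), Mybl2 (0.572 ± 0.457) and E2f7 (0.449 ± 0.721), and neighbours in that order overlapped.

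Among themselves, Foxm1, E2f7 and E2f8 varied together within groups, while Mybl2 stood more apart. The correlations are of log2 CPM over 20 libraries, are descriptions only, and share library, depth and low counts. For deviations from the group means r was 0.85 between Foxm1 and E2f8, 0.86 between E2f7 and E2f8 and 0.78 between Foxm1 and E2f7. Mybl2 had r of 0.24 with Foxm1, 0.20 with E2f7 and 0.36 with E2f8. Mybl1 lay between, with r of 0.50 with Foxm1, 0.60 with E2f7, 0.60 with E2f8 and 0.49 with Mybl2. Over the raw values, which include the group differences, Mybl1 had r of 0.78 with Foxm1 and -0.09 with E2f8.

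Mybl1 and Foxm1 parted in WT livers after PHx. Per kilobase, Mybl1 was 1.04 and 0.792 times Foxm1 in WT replicates 1 and 5, whose G2/M genes were high, and 63.7, 5.48 and 25.4 times Foxm1 in replicates 2, 3 and 4. In KO after PHx the ratio ran from 0.504 in replicate 10 to 8.47 in replicate 11.

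Among 13288 protein-coding genes, those most like Foxm1 over the 20 libraries were Prr11 (r = 0.974), Aurka (0.973), the mitotic kinase, and Cdk1 (0.965). Those most like E2f7 were Cdc6 (0.902), which loads the replicative helicase, Asf1b (0.90), a histone chaperone, and Rrm1 (0.899), a subunit of ribonucleotide reductase. Those most like E2f8 were Haus4 (0.902), Nono (0.887) and Cbx1 (0.867). For deviations from group means, Foxm1 was most like Prr11 (0.968), Cdca2 (0.966) and Mad2l1 (0.96), E2f7 most like Wdr90 (0.91), Nsl1 (0.909) and Mxd3 (0.906), and E2f8 most like Prim1 (0.961), the DNA primase subunit, Dnajc9 (0.96) and Fignl1 (0.952). The genes most like Mybl1 over the 20 libraries were Ctps2 (0.93), the CTP synthase, Ly6d (0.914), Syt12 (0.901), Orm2 (0.901), an acute-phase protein of hepatocytes, and Adam15 (0.894). For deviations its nearest were Ankrd26 (0.831), Slc5a9 (0.826), Cep57l1 (0.824), Zscan21 (0.822) and Psd3 (0.817). Mybl2 was most like Cyb561 (0.887), Mthfd1l (0.876), an enzyme of mitochondrial folate metabolism, and Ptgfrn (0.868), and for deviations most like Oxsm (0.81), Phtf1 (0.799) and Cd34 (0.796).

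Of the other Myb and E2F genes, 6 of 7 were tested, and E2f3, an activator E2F, was the only one called in any of the 7 comparisons. It rose from 7.09 ± 1.01 to 14.1 ± 4.08 CPM after PHx in WT (log2 0.99, SE 0.24, edgeR adjusted p = 0.00787) and from 7.20 ± 0.875 to 14.9 ± 5.68 CPM in KO (1.05, SE 0.24, edgeR adjusted p = 0.00453). Of all genes 20.1% were called for the response in WT and 29.5% for that in KO. The median log2 response of the 6 genes was 0.72 in WT and 0.50 in KO, beside 0.04 and 0.10 over all genes. With each mouse as a block the E2f3 rise in WT was 0.80 with an adjusted p of 0.111. E2f1, the activator best known in S-phase entry, ran from 0.261 to 55.3 CPM after PHx in WT, and its log2 value of 2.39 was not called (SE 1.04, edgeR adjusted p = 0.109). Myb, the third Myb gene, had between 2 and 14 counts summed over a group and did not pass the filter.

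All 10 genes of the MuvB core, the pocket proteins and the DP partners were tested. For the response in WT 2 were called higher and 2 lower, beside 20.1% of all genes called in either direction. Rbbp4, a histone-binding MuvB subunit that also belongs to the Eed complex, fell from 156 ± 10.8 to 83.1 ± 31.1 CPM (log2 -0.91, SE 0.21, edgeR adjusted p = 0.00516). Rbl2, the p130 pocket protein of quiescent cells, fell from 40.8 ± 4.25 to 23.7 ± 4.10 CPM (log2 -0.78, SE 0.16, edgeR adjusted p = 0.0023). Both falls were smaller and not called when libraries were scaled by total counts alone (-0.53, adjusted p = 0.0629, and -0.42, adjusted p = 0.128), a scaling that moved the median response of all genes in WT from 0.04 to 0.40. Rbl1, the p107 pocket protein (log2 2.51, SE 0.85, edgeR adjusted p = 0.0431), and Tfdp1, the DP1 partner of E2F (0.86, SE 0.26, edgeR adjusted p = 0.0262), were called higher. Those calls were lost in 7 and 4 of 10 fits without 1 library, with adjusted p up to 0.118 and 0.0897, both without the 30 h WT replicate 1 after PHx. With each mouse as a block they were 0.76 (adjusted p = 0.647) and 0.58 (adjusted p = 0.185).

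In the other comparisons of this list, 1 gene or none was called. Rbl2 was lower in KO at baseline (log2 -0.47, SE 0.16, edgeR adjusted p = 0.0458), a call lost in 8 of 10 fits without 1 library and at 0.01 with total-count scaling. Lin9, a MuvB subunit, was called higher after PHx in KO (1.24, SE 0.43, edgeR adjusted p = 0.0348), and lost its call in 5 of 10 fits without 1 library. Rbbp4 was called higher in KO at 40 h (0.70, SE 0.22, edgeR adjusted p = 0.0447) and Lin37 lower at 48 h (-1.12, SE 0.38, edgeR adjusted p = 0.0411).

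The list of G2/M genes holds 33 that were named from general knowledge as bound by B-Myb, MuvB and FoxM1. Binding was not measured here. Summed over the list, resting WT livers held 51.9 to 70.1 CPM and resting KO livers 103 to 358 CPM, with no overlap. After PHx the sums were near or inside the WT baseline range in WT replicates 2 and 4 (80.9 and 59.9 CPM) and in KO replicates 7 and 12 (61.1 and 47.2 CPM), and highest in WT replicate 5 and KO replicate 10 (3230 and 1720 CPM). Ccnf, the cyclin F gene, made up much of the WT baseline sum (32 ± 7.89 CPM) and had a median of 5.86 CPM in KO after PHx. Mki67 was at least 3.42 CPM in all KO livers after PHx and at most 1.76 CPM in WT at baseline, and Cdk1 at least 2.46 and at most 1.34 CPM. Cdc20, the activator of the anaphase-promoting complex, overlapped, with a lowest KO liver after PHx of 0.757 CPM and a highest WT baseline liver of 0.78 CPM. WT replicates 2 and 4 held 13 and 15.2 CPM of Mybl1, so that Mybl1 was high in livers whose G2/M sum was not.

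For the response in WT, 31 of the 33 G2/M genes were called higher and 0 lower, where 20.1% of all genes were called in either direction. Their median log2 was 6.48 beside 0.04 over all genes. Mki67, the proliferation antigen, went from 0.902 ± 0.497 to 85.0 ± 140 CPM (log2 6.58, SE 1.66, edgeR adjusted p = 0.00954), and Cdk1 from 0.75 ± 0.404 to 36.0 ± 54.3 CPM (5.58, SE 1.37, edgeR adjusted p = 0.00826). Without WT replicate 5, 17 were called, with only the WT libraries in the fit 10, and with each mouse as a block 0. In KO 0 of 33 were called after PHx by edgeR or DESeq2, where edgeR called 29.5% of all genes. Of the 33, 0 had an unadjusted p under 0.05, with a median log2 of 1.16. The list sum was lower after PHx than at baseline in KO mice 7 (358 to 61.1 CPM), 8 (210 to 106 CPM) and 12 (103 to 47.2 CPM). It was higher in KO mice 10 (116 to 1720 CPM) and 11 (175 to 249 CPM). Of the differences between the responses, 0 were called by edgeR, 24 had an unadjusted p under 0.05 and DESeq2 called 5 lower. Their median was -5.32, and 23 were called lower by edgeR without KO replicate 10.

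Between genotypes at baseline, 3 of 33 G2/M genes were called higher in KO: Ccna2 (log2 5.00, edgeR adjusted p = 0.038) and Ccnb1 (5.65, adjusted p = 0.0474), the mitotic cyclins, and Plk1 (5.92, adjusted p = 0.0357), the polo-like kinase. That share is below the 11.1% of all genes called higher. The median of the list was 4.06 beside -0.03 over all genes, 27 had an unadjusted p under 0.05, and DESeq2 called 22. With only the baseline libraries in the fit 27 were called higher, beside 2846 of all 13286 genes in that fit. In each of the 10 fits without 1 library, between 0 and 2 were called. Ccnf, 1 of the 4 most abundant of the list, stood the other way at 32 ± 7.89 CPM in WT and 13.3 ± 3.52 in KO (log2 -1.27, SE 0.51, edgeR adjusted p = 0.0948). At 48 h, where 24.3% of all genes were called, 17 were called lower in KO, with a median of -4.73, with 1 called without WT replicate 5 or without either 48 h KO liver (7 or 8) and 32 without WT replicate 4. Ccnf was among the 17 (-3.07, SE 0.51, edgeR adjusted p = 0.000845). After PHx as a whole Ccnf was the only G2/M gene called between genotypes (-1.42, SE 0.51, edgeR adjusted p = 0.0468), beside 24.2% of all genes. That call was lost in 8 of 10 fits without 1 library. At 40 h 0 were called by edgeR, beside 13.3% of all genes, and 22 had an unadjusted p under 0.05, with a median of 3.98. DESeq2 called 10 higher and edgeR without the filter 21.

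Of the 30 G1/S genes regulated by E2F, which include the targets that E2F7 and E2F8 repress, 24 were called higher and 1 lower after PHx in WT, where 20.1% of all genes were called in either direction. In KO 8 were called higher and 0 lower, a share near the 29.5% of all genes called there. Their median log2 response was 3.42 in WT and 2.04 in KO. Rrm2, the small subunit of ribonucleotide reductase, rose from 3.04 ± 0.677 to 53.0 ± 66.0 CPM in WT (log2 4.13, SE 0.77, edgeR adjusted p = 0.0013) and from 9.06 ± 6.00 to 135 ± 101 CPM in KO (3.89, SE 0.75, edgeR adjusted p = 0.00179). With each mouse as a block 4 were called in WT and 6 in KO, and without the 30 h WT replicate 1 there were 13 in WT. The KO count fell to between 3 and 5 without any 1 of KO baseline replicates 7, 8, 10, 11 and 12 or KO replicates 10 and 11 after PHx, and DESeq2 called 15. Of the differences between the responses 0 were called by edgeR or DESeq2 and 2 had an unadjusted p under 0.05, with a median of -1.04.

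At 40 h, 20 of 30 G1/S genes were called higher in KO, beside 8.61% of all genes, with a median of 2.69 beside 0.04 over all genes. Without WT replicate 2 the count was 0, and without KO replicate 10 it was 5. In summed CPM, WT replicates 2 and 3 held 145 and 262 CPM and KO replicates 10 and 11 held 1730 and 586 CPM. At 48 h 2 were called lower in KO, Mcm5 (-2.67, edgeR adjusted p = 0.0436) and Mcm7 (-1.69, edgeR adjusted p = 0.0125), both subunits of the replicative helicase, with counts of 0 to 17 in the 4 fits without 1 library. At baseline the summed CPM of the genotypes overlapped, at 203 to 307 CPM in WT and 166 to 280 CPM in KO, but Mcm10 made up much of the WT sum. The median log2 difference over the 30 genes was 0.89, beside -0.03 over all genes, and 6 had an unadjusted p under 0.05. With only the baseline libraries in the fit 13 were called higher and 2 lower. The 1 gene called by the fit of all libraries was Mcm10, a replication initiation factor, at 94.8 ± 37.1 CPM in WT and 17 ± 12.2 in KO (log2 -2.48, SE 0.77, edgeR adjusted p = 0.0329). It was also the only G1/S gene called lower after PHx in WT, at 18.1 ± 21.8 CPM (-2.39, SE 0.77, edgeR adjusted p = 0.0332). These calls were lost in 6 and 7 of 10 fits without 1 library.

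**Figure D5:**
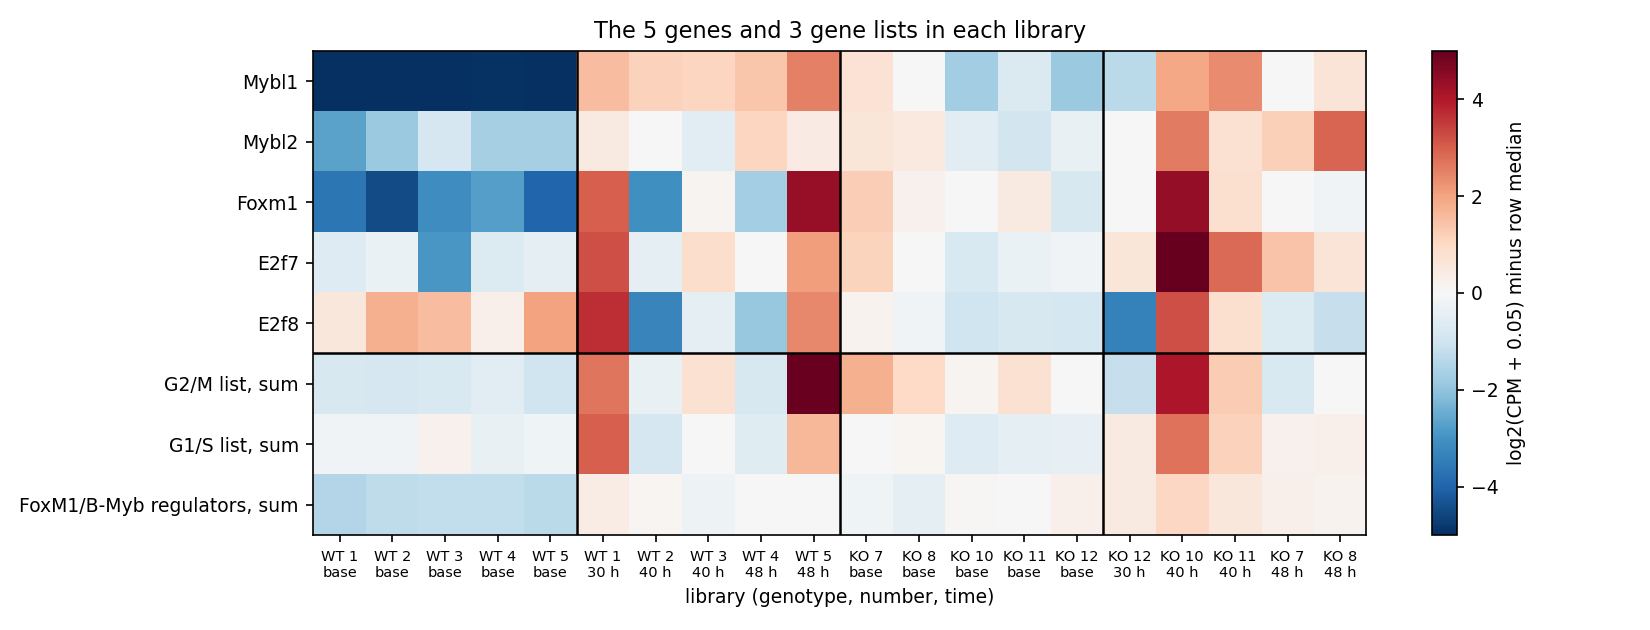
Log2 CPM of the 5 members and the summed CPM of 3 gene lists in each library, as the difference from the median of the row (0.05 CPM added, colours limited to 5 either way). Libraries are ordered by group and time. WT 2 at 40 h and WT 4 at 48 h are red for Mybl1 and not for Foxm1 or the G2/M list, and KO 10 at 40 h is red in all rows.

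The male germ cell genes driven by A-Myb were mostly not expressed. Of 15 genes, 4 passed the filter, and Piwil1 and Mov10l1, which act in the piRNA pathway, had no count in any group. For the response in WT and in KO the same 2 were called higher, beside 20.1% and 29.5% of all genes called in either direction. With 4 genes tested, these counts are not read as a result about the list. Ddx39a, an RNA helicase also expressed outside the germ line and listed as Ddx39 in GENCODE M21, rose from 12 ± 1.37 to 29.5 ± 12.1 CPM in WT (log2 1.30, edgeR adjusted p = 0.00145) and from 13.1 ± 1.26 to 22.5 ± 6.64 CPM in KO (0.78, edgeR adjusted p = 0.0228). Tdrd12, a Tudor protein of the piRNA pathway, went from 1 count over the WT baseline group to 50 after PHx and from 9 to 146 in KO (edgeR adjusted p = 0.0321 and 0.0262). The KO call of Ddx39a was lost in 3 of 10 fits without 1 library, and those of Tdrd12 in 7 of 10 in WT and 5 of 10 in KO. With each mouse as a block Ddx39a in KO (0.72, adjusted p = 0.0528) and Tdrd12 in WT (adjusted p = 0.0917) and KO (adjusted p = 0.0652) were not called. At 48 h Ddx39a was called lower in KO (-0.97, edgeR adjusted p = 0.0174).

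Of 16 kinases, inhibitors and other regulators that act on FoxM1 and B-Myb, 6 were called higher in KO at baseline and 0 lower, where 16% of all genes were called and 11.1% were higher. The median log2 difference of the list was 0.39, beside -0.03 over all genes. They were the D-type cyclins Ccnd1 and Ccnd2 and the cyclin-dependent kinase inhibitors Cdkn1a, Cdkn1c, Cdkn2a and Cdkn2b. Ccnd1 stood at 22.9 ± 4.50 CPM in WT and 216 ± 80.0 in KO (log2 3.23, SE 0.77, edgeR adjusted p = 0.00701), and Cdkn1a, the p21 gene, at 11.8 ± 7.35 and 64.8 ± 9.93 CPM (2.46, SE 0.54, edgeR adjusted p = 0.0042). For the response, 3 of 16 were called in each genotype, beside 20.1% of all genes in WT and 29.5% in KO. Of these, Cdkn1a rose in WT (log2 3.87, SE 0.58, edgeR adjusted p = 0.000205) and in KO (2.23, SE 0.54, edgeR adjusted p = 0.00577), to 173 ± 133 and 304 ± 98.4 CPM. The others, also higher, were Ccnd1 and Cdk6 in WT and Cdkn2b and Fzr1 in KO. The Ccnd1 call (2.56, SE 0.75, edgeR adjusted p = 0.0206) was lost in 2 of 10 fits without 1 library and with each mouse as a block (1.19, adjusted p = 0.416). Between genotypes after PHx 5 were called higher in KO (Ccnd2, Cdkn1c, Cdkn2a, Cdkn2b and Fzr1), beside 24.2% of all genes called. At 40 h 7 were higher, beside 8.61% of all genes, and at 48 h 3 were higher (Ccnd2, Cdkn2a and Cdkn2b) and 3 lower (Cdkn2c, Fbxo5 and Trp53), beside 24.3% of all genes called.

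Markers of other liver cells moved with the groups as well, and their part in the results above was not tested. Of all genes, 16% were called at baseline, with 11.1% higher in KO, 20.1% for the response in WT and 29.5% for that in KO. Between genotypes 24.2% were called after PHx, 13.3% at 40 h and 24.3% at 48 h. With at most 7 markers a list, counts near these shares are not read as a shift of a cell type. All 7 stellate and fibroblast markers were tested, and 4 were called higher in KO at baseline, with sums of 77.7 to 114 CPM in WT and 184 to 284 CPM in KO. The 7 macrophage markers summed to 99.2 to 169 CPM in resting WT and 227 to 291 CPM in resting KO, with 2 called. The 7 lymphocyte markers summed to 6.84 to 10.9 CPM in resting WT and 9.44 to 24.8 CPM in resting KO, with 1 of 4 tested called. The 6 cholangiocyte markers summed to 23.4 to 58.9 CPM in resting WT and 56.6 to 359 CPM in resting KO. At baseline 1 was called higher in KO (Spp1, log2 2.32, SE 0.68, edgeR adjusted p = 0.0237) and 5 had an unadjusted p under 0.05. After PHx 4 were called higher in KO. The 6 neutrophil markers summed to 0.36 to 0.78 CPM in resting WT, where Ly6g, Mpo and Camp were at 0, and to 1.34 to 37.6 CPM after PHx, with both tested members called. In resting KO, where Ly6g and Elane were at 0, they summed to 1.5 to 7.13 CPM, above all resting WT livers, and S100a8 was called higher than in WT (log2 3.39, SE 1.14, edgeR adjusted p = 0.0482). After PHx in KO the sums were 2.92 to 59.8 CPM, with 0 of 2 called between genotypes. Endothelial markers had 1 of 7 called at baseline (150 to 180 CPM in WT, 187 to 222 CPM in KO), and of 6 erythroid markers tested 1 was lower in KO at baseline. The hepatocyte markers summed to 119000 to 139000 CPM in resting WT and 73900 to 99500 CPM in resting KO, with 2 of 7 called lower. For the responses to PHx, the hepatocyte markers Ttr and Serpina1c were called lower in both genotypes. The lymphocyte markers Cd4 and Ms4a1 were lower in both and Ptprc lower in KO, of 4 tested. Of 7 macrophage markers, 2 were higher (Cd68 and Marco) and 1 lower (Csf1r) in WT, and 1 was higher (Marco) and 3 lower (Adgre1, Clec4f and Csf1r) in KO. Of 6 cholangiocyte markers, 0 were called in WT, 2 with an unadjusted p under 0.05, and 3 were higher in KO (Krt19, Krt7 and Epcam). Of 7 stellate and fibroblast markers 0 were called in WT, 3 with an unadjusted p under 0.05, and 2 were lower in KO (Lrat and Reln). The endothelial marker Kdr was lower in WT and KO (log2 -1.60 and -1.63) and Lyve1 higher in KO (2.51), and the erythroid marker Alas2 was lower in both (-1.87 and -2.05). Between genotypes after PHx, where Mybl2 was called, the stellate and fibroblast markers Col1a1 and Col3a1, the macrophage marker Csf1r and the endothelial marker Cdh5 were also called higher in KO. The hepatocyte markers Apoa1 and Serpina1c and the erythroid markers Hba-a2, Hbb-bt and Alas2 were called lower. At 40 h alone, Krt19, Epcam and Col3a1 were called higher in KO, and Alb, Apoa1 and Alas2 lower. At 48 h, 4 of 6 cholangiocyte markers and Cdh5 were called higher in KO. Lower at 48 h were 4 of 7 hepatocyte markers (Alb, Cps1, Serpina1c and Hnf4a), Kdr and Alas2.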

How the data were processed

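Whole-liver RNA of 20 mouse samples was sequenced paired-end. The authors deposited 1 table for each library, with raw counts by Ensembl gene and no normalisation. Per the series' design text, reads were checked with FastQC 0.11.5 and trimming used fastp 0.20.0, the genome was mm10, and reads mapping to 1 place were counted; the submitters' processing notes name Trimmomatic 0.36 instead. The aligner, counter, strand setting and annotation release are not given in the sources used here.

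Symbols came from GENCODE M21 (46091 of 46603 identifiers). The edgeR 4.0.16 quasi-likelihood test (two-sided, TMM, filterByExpr, 14661 genes) was fitted to all 20 libraries with 4 group means, and a second fit took genotype and time for 40 h and 48 h. A gene was called when its p, adjusted by Benjamini-Hochberg across the genes of the fit, was under 0.05. The test was tested on simulated data. Correlations use log2 CPM with a prior count of 2. The members and gene lists were chosen with earlier results of these data known, and the lists were written from general knowledge. Of the Myb/E2F and MuvB lists any gene was named, of the others the 4 most abundant, and where 5 or fewer were called also those; Ccna2, Ccnb1, Plk1, Mcm5, Mcm7, Ccnd2, Cdk6, Fzr1, Fbxo5, Trp53 and the Cdkn1c, Cdkn2a, Cdkn2b and Cdkn2c genes were so named after their values were seen. Alternatives were DESeq2 1.42.0, library size alone, no filter, only the samples compared, a time term, the mouse as a block, and leaving out each library; leaving out both 30 h libraries was added after seeing the data. The labels say that each mouse gave both samples, and 9 mice are numbered in both titles; residuals of the same mouse correlated at -0.05 to 0.15 over 9 pairs (median 0.04), and of different mice at -0.23 to 0.26 over 36. No pair of libraries was identical. Separate mice are the replicates within a group.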

Additional observations from a re-analysis of the deposited data

Results flagged for a closer look

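In 20 groups of 5 libraries (5 members in 4 groups), the gap of the highest or lowest library to its neighbour was compared with the range of the group, and a gap above 0.71 of the range, Dixon's bound, was marked. Chance marks about 1 in 20 groups when these are independent. The groups here share libraries, and 3 of the 6 marks are the same library, so their number is not read against chance. The mark of Mybl1 is a description, since its values chose it. In WT after PHx, Mybl1 was marked in replicate 5, a 48 h liver, at 33.2 CPM. In KO after PHx, replicate 10, a 40 h liver, was marked for Foxm1 at 46.7 CPM, E2f7 at 15.6 CPM and E2f8 at 32.7 CPM. The same library held 1720 CPM of G2/M genes. At baseline, E2f7 was marked in WT replicate 3, which had 0 CPM (0 counts), and in KO replicate 7 at 0.763 CPM, both at a depth of few counts.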

How the results depend on the processing

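Counts of called members, over the 4 that were tested, moved with single libraries and settings, and the cause was not tested. KO against WT at baseline gave 2, 1 without a filter, and 0 to 1 when 1 library was left out. KO against WT after PHx gave 1, 0 without a filter, with only the samples compared or with a time term, 2 without both 30 h libraries (Mybl2 and E2f7, the latter at 2.83 with an adjusted p of 0.034), and 0 to 1 when 1 library was left out. The WT response gave 2, 3 with DESeq2 or library size alone, 1 with only the samples compared, 0 with the mouse as a block, and 2 to 3 leaving out 1 library. The KO response gave 2, 1 with the block, and 1 to 2 leaving out 1 library. The difference of responses gave 0, and 0 to 1 leaving out 1 library. At 40 h there were 2, 3 without a filter, 4 with DESeq2 or library size alone, and 0 to 2 leaving out 1 library. At 48 h there were 0, 2 with DESeq2 or no filter, and 0 to 2 leaving out 1 library. Beyond the calls of Mybl2 and Foxm1 in WT and of E2f7 in KO, the block changed no call among members. The median correlation of deviations over the 10 pairs of members was 0.55, and 0.47 to 0.61 leaving out 1 library. The lists moved too. For G2/M genes at baseline 3 were higher, and 22, 21 and 27 with DESeq2, library size alone and only the samples compared. At 40 h the 0 higher became 10, 4 and 21 with DESeq2, library size alone and no filter, and at 48 h the 17 lower became 9 with library size alone and 30 without a filter. For G1/S genes at baseline the 0 higher became 2, 3 and 13 with DESeq2, library size alone and only the samples compared. The 8 higher in the KO response became 15 and 13 with DESeq2 and library size alone, and the 2 lower at 48 h became 9, 0 and 11 with DESeq2, library size alone and no filter.

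The sign of some log2 values turned. Without both 30 h libraries, KO against WT after PHx was 0.18 for Foxm1 and 0.93 for E2f8, the WT response of E2f8 was -0.70 and the difference of responses of Mybl2 0.02. With the block the WT response of E2f8 was -2.11. With library size alone, E2f7 at 48 h was 0.05 and Rbl2 at baseline 0.01. Leaving out 1 library, KO against WT after PHx ran from -2.39 to 1.16 for Foxm1 (0.07 and 0.05 without KO 7, 8 or 12), -0.09 to 2.55 for E2f7 and -2.41 to 0.62 for E2f8. The responses ran from -0.70 to 0.92 for E2f8 in WT and -0.16 to 2.37 for Foxm1 in KO. Their difference ran from -0.75 to 0.00 for Mybl2, -1.15 to 1.49 for E2f7 and -0.56 to 2.47 for E2f8. At 48 h the ranges were -4.56 to 1.59 for Foxm1, -1.15 to 1.14 for E2f7 and -3.44 to 0.96 for E2f8. Library size alone moved the median of all genes at baseline from -0.03 to 0.45. Where 40 h or 48 h was left with 1 library, that library was assumed to vary like the others. Depth limits Mybl2, E2f7 and WT baseline Mybl1 and Foxm1 most, at 7 to 19 counts summed over the WT baseline group.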
